A study of Mus musculus with 6 samples.

Results

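The muscarinic acetylcholine receptors and the genes that make, package, recover and break down acetylcholine were followed in brain RNA of Kdm6a deficient and wild-type mice. The 9 members were taken by symbol from the 43346 rows of the deposited table. They are the receptor genes Chrm1 to Chrm5, the enzyme genes Chat and Ache, and the transporter genes Slc18a3 and Slc5a7. The study sequenced brain RNA of 6 adult male C57BL/6 mice, of which 3 were Kdm6a deficient and 3 were wild-type littermates. All 6 came from loxP-Kdm6a females bred with Thy1-Cre males, and the Thy1 promoter is active mainly in neurons. Which of these alleles the wild-type littermates carried is not given, and the labels name no brain region. Kdm6a is an X-linked demethylase of histone H3 lysine 27, and its transcript stood at 24.2 ± 1.68 CPM in deficient and 34.6 ± 0.370 CPM in wild-type brains (SD, n = 3 each), so 70.1% of the wild-type level remained. The unit CPM is the count of a gene per 1000000 counts of its library after scaling.

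Acetylcholine is made from choline and acetyl-CoA by choline acetyltransferase, loaded into vesicles, released, and split in the synaptic cleft by acetylcholinesterase, after which the choline is taken back up. In the brain it comes from a few neuron groups, among them the basal forebrain, the striatal interneurons, the medial habenula and cholinergic nuclei of the brainstem and cranial nerves. Its muscarinic receptors are G protein-coupled. The M1, M3 and M5 receptors act through Gq and phospholipase C, and the M2 and M4 receptors act through Gi, which lowers cyclic AMP and opens inwardly rectifying potassium channels.

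Library totals ran from 18542590 to 24531408 counts. After the filter on low counts, 15030 genes were left for testing. Wild-type mouse 3 stood apart in pituitary RNA, with growth hormone (Gh) at 998 CPM against 0.433 to 5.88 CPM in the other libraries, and values without this mouse are given after the members. The 8 general neuron markers were all detected, and their mean log2 CPM lay within 0.02 of the wild-type mean in every mouse. Over all tested genes, 49.2% had a negative log2 fold change, deficient over wild type, and 5.86% an unadjusted edgeR p under 0.05. Of 11 cerebellar markers, all tested, 10 had a positive log2 fold change, and 4 of these had an unadjusted edgeR p under 0.05. Their summed level ran from 1318 to 1588 CPM in deficient and from 1189 to 1366 CPM in wild-type mice. All 7 blood markers were positive too, 2 of them with an unadjusted p under 0.05, with sums of 63.6 to 86.3 CPM and 52.5 to 67.0 CPM. No gene of either list was at 0 in every library, and their part in the results was not tested. The labels name no batch.

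For no member did a test find a difference between the genotypes beyond the spread between mice. Of the 9 members 8 were tested, and 0 passed a false discovery rate (FDR) of 5% with edgeR, against 0.0466% of all tested genes (0.0333% lower and 0.0133% higher in deficient brains). DESeq2 and limma-voom also called 0 of the 8, against 0.141% and 0.0466% of their tested genes. An unadjusted p under 0.05 was reached by 0 of the 8 with each of these 3 tools, where 5.86% of all genes reached it with edgeR, 2.44% with DESeq2 and 5.9% with limma-voom. The smallest unadjusted edgeR p was 0.158 and the adjusted values ran from 0.901 to 0.991. Values per mouse below are in the order of mouse 1, 2 and 3 of a genotype. Log2 fold changes, deficient over wild type, were positive for 4 members and negative for 4. Their median was 0.02, beside 0.00 over all tested genes, of which 49.2% were negative. In 1 of the 8, Chrm2, the CPM values of the genotypes did not overlap, as in 11.2% of all tested genes.

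**Figure D1:**
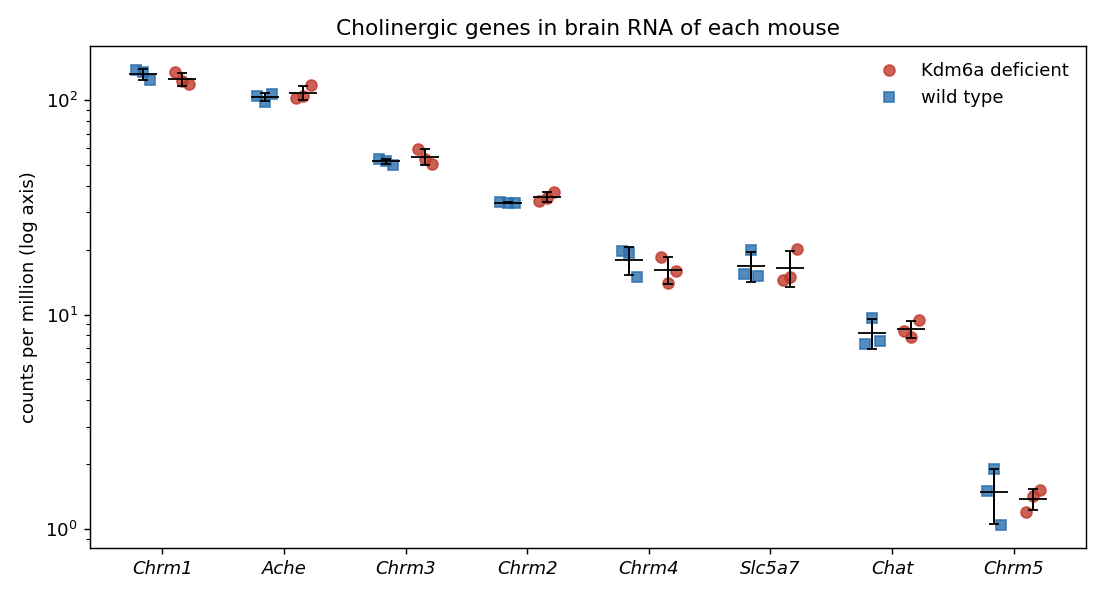
Level of the 8 counted members in each mouse, in CPM on a log axis. Circles are the 3 Kdm6a deficient mice and squares the 3 wild-type mice, and the bars give the mean and SD. The genotypes lie close together for every gene, and the levels span from about 133 CPM for Chrm1 to 1.48 CPM for Chrm5 in wild-type mice.

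Chat encodes choline acetyltransferase, the enzyme whose presence defines a cholinergic neuron, and Slc18a3 encodes the vesicular acetylcholine transporter. Both lie in 1 locus on the minus strand of chromosome 14 (GRCm38), where Chat spans 32408203 to 32465989 and Slc18a3 spans 32462438 to 32464850. Slc18a3 is a single exon of 2413 bases between exons of Chat, and it shares 0 exonic bases with Chat in GENCODE release M21. The windows around both starts are shown because this locus holds the only member without counts. They come from RefSeq on GRCm38.p6 and reach from 250 bases before to 50 bases after the start, with Chat at chr14:32465860-32466159 and Slc18a3 at chr14:32464801-32465100, both read 5′ to 3′ on the minus strand. Capitals mark the motifs found.
Chat: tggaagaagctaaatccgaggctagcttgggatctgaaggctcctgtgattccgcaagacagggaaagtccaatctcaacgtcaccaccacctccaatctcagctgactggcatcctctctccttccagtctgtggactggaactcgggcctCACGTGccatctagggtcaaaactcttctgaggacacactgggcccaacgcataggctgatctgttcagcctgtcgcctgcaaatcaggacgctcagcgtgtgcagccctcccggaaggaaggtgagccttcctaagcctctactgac
Slc18a3: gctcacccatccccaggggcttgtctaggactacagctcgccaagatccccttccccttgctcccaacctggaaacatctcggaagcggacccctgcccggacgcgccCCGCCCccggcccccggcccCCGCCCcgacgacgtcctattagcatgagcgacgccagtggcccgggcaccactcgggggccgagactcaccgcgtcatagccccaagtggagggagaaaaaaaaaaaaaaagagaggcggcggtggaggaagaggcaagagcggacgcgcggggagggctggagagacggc
The starts lie 1059 bases apart. Searched on both strands were the TATA box TATAAA, the GC box motif GGGCGG, the cAMP response element TGACGTCA and the E-box motif CACGTG, and the matches found here do not overlap each other. The Chat window holds CACGTG at base -98 from the start, a motif present in 7.15% of all 32851 windows. The Slc18a3 window holds GGGCGG on the opposite strand at bases -142 and -122, a motif present in 35.7% of windows. The GC content of the Slc18a3 window is 67.0% and that of the Chat window 55.7%, beside a median of 52.7% over all windows.

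Slc18a3 had 0 counts in each of the 6 libraries, while Chat had 165 to 193. A floor of 3 counts per library allows Slc18a3 up to 0.122 to 0.162 CPM, which covers counting error only. Chat is expressed in the same neurons as Slc18a3, and its lowest value here was 7.32 CPM. Among 20637 protein-coding genes with a row, 18.9% were at 0 in every library. Among the 80 genes that, like Slc18a3, lie wholly inside a counted protein-coding gene on the same strand and share no exonic base with it, 49 were at 0 (61.3%). These 80 were not matched to the other genes for expression in brain. They include keratin-associated genes at 0, such as Krtap10-10, and genes that were counted, such as Per3 and Vamp3. No source names the annotation or the rule that assigned reads to genes, and their part in the 0 was not tested. Slc18a3 therefore gives no information on the genotypes.

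**Figure D2:**
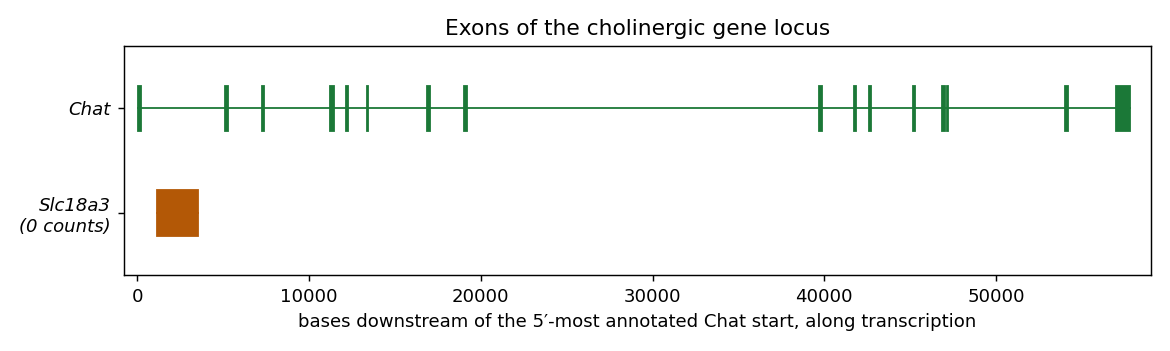
Exons of Chat and Slc18a3 in the basic transcripts of GENCODE M21, along the direction of transcription. Positions are in bases downstream of the 5′-most Chat start in the full GENCODE M21 annotation, and the first Chat exon drawn begins at 32. Boxes are exons and the line is the span of Chat. Slc18a3, with 0 counts, lies from 1139 to 3551 bases downstream, between the exons of Chat.

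Chat itself was counted at 8.39, 7.84 and 9.40 CPM in the deficient mice and at 7.32, 9.69 and 7.57 CPM in the wild-type mice. The highest and the lowest value both came from wild-type mice, so the groups overlapped fully. Deficient over wild type, the log2 fold change was 0.06 (SE 0.12, 95% interval -0.20 to 0.33, edgeR adjusted p = 0.972). This interval allows a deficient level of 87.0% to 126% of wild type. A change of the size seen for Kdm6a itself, to 70.1%, lies outside it.

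Slc5a7 encodes the high-affinity choline transporter, which returns choline to the nerve ending and limits the rate of acetylcholine synthesis. It had 14.5, 15.0 and 20.2 CPM in the deficient mice and 15.4, 19.9 and 15.2 CPM in the wild-type mice. A single mouse of each genotype was high, and the rest lay close together. Its log2 fold change was -0.02 (SE 0.15, 95% interval -0.37 to 0.32, edgeR adjusted p = 0.991). Its spread between mice, with a coefficient of variation of 19.2% in deficient and 15.7% in wild-type mice, was above the 5.21% and 5.27% that counting alone gives.

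Chat and Slc5a7 were high in the same mice, deficient mouse 3 and wild-type mouse 2. For Chat the coefficient of variation was 9.30% in deficient and 15.9% in wild-type mice, beside 7.24% and 7.56% from counting alone. In the deficient mice its spread was thus close to counting error. The count of Slc5a7 over that of Chat was 1.73, 1.91 and 2.15 in the deficient mice and 2.11, 2.06 and 2.01 in the wild-type mice. The ratio was 1.93 ± 0.212 in deficient and 2.06 ± 0.0491 in wild-type mice (SD, n = 3 each). It varied less than either gene in the wild-type mice, but in the deficient mice its spread was no smaller than that of Chat. The counting error of the ratio was not computed, so its small spread in the wild-type mice is a description only. Of the 10 listed markers of hindbrain and glycinergic neurons, all were counted and 5 were tested. The mean log2 CPM of these 5, relative to wild type, was 0.03, -0.15 and 0.25 in the deficient mice and -0.08, 0.04 and 0.03 in the wild-type mice. Deficient mouse 3 and wild-type mouse 2 were the highest of their genotype in this list too, the latter by little. In 2 other lists of regions with cholinergic neurons, the medial habenula (8 of 8 tested) and the brainstem motor and monoamine nuclei (9 of 11 tested), deficient mouse 3 was the highest at 0.13 and 0.32, but wild-type mouse 2 stood at -0.08 and -0.01. In the list of cholinergic neuron identity (10 of 10 tested) deficient mouse 3 was again the highest at 0.15, and wild-type mouse 2, at -0.06, was the lowest wild-type mouse. In the list of striatal neuron markers (11 of 11 tested) it was not, with deficient mouse 3 at -0.03 and deficient mouse 1 at 0.06. Wild-type mouse 2 stood at 0.01 there, below wild-type mouse 1 at 0.02. The summed level of the 10 hindbrain and glycinergic markers ran from 439.6 to 511 CPM in deficient and from 453.5 to 472 CPM in wild-type mice. Most of this sum came from the neurofilament gene Nefh and the glutamate transporter gene Slc17a6. The hindbrain and glycinergic list was picked out after its values were seen, and its part in the Chat and Slc5a7 levels was not tested. In whole-tissue RNA, fewer cells of a type and less RNA per cell cannot be told apart.

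Ache encodes acetylcholinesterase, which ends the signal and is also made by neurons that are not cholinergic. It was counted at 102, 104 and 118 CPM in the deficient mice and at 104, 98.5 and 107 CPM in the wild-type mice. Only deficient mouse 3 lay above all wild-type mice. The log2 fold change was 0.07 (SE 0.06, 95% interval -0.06 to 0.19, edgeR adjusted p = 0.932), which allows 95.9% to 114% of the wild-type level. Ache shares 98 exonic bases with Gm42456 on the opposite strand, and with the strand setting unknown the reads of the pair cannot be separated.

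**Figure D3:**
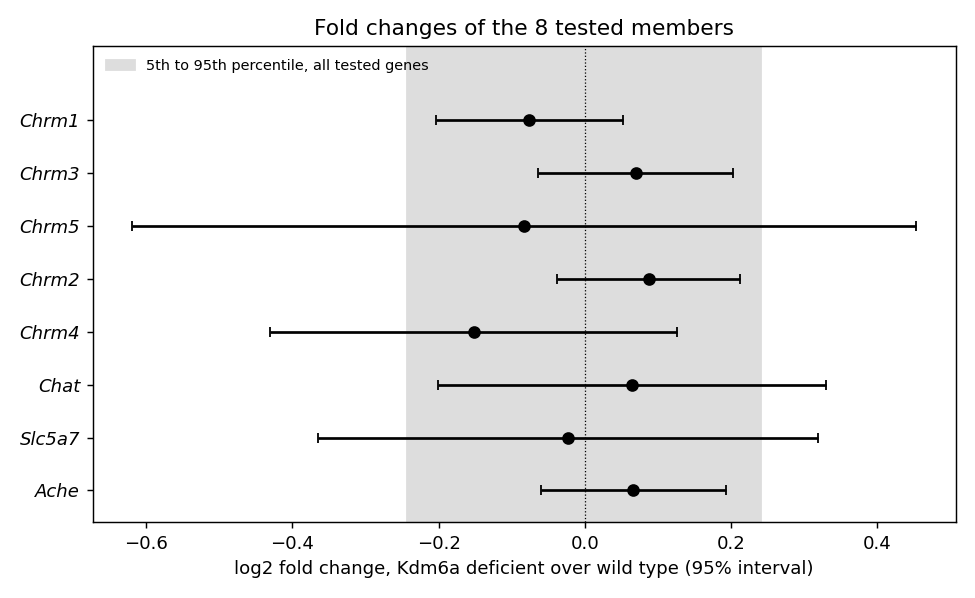
Log2 fold change of the 8 tested members, Kdm6a deficient over wild type, with 95% intervals from the edgeR fit over 3 mice per genotype. The grey band spans the 5th to the 95th percentile of all tested genes, -0.24 to 0.24. Every interval includes 0, and those of Chrm5 (-0.62 to 0.45) and Chrm4 (-0.43 to 0.13) are the widest among the receptors.

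Among the Gq-coupled receptors, Chrm1 encodes M1, the main muscarinic receptor of excitatory neurons in cortex and hippocampus. It had 135, 123 and 119 CPM in the deficient mice and 138, 136 and 124 CPM in the wild-type mice. Deficient mouse 1 lay among the wild-type mice and wild-type mouse 3 among the deficient. For Chrm1 the log2 fold change was -0.08 (SE 0.06, 95% interval -0.20 to 0.05, edgeR adjusted p = 0.911). Chrm1 shares 329 exonic bases with Gm22820, a small RNA gene on the opposite strand.

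Chrm3 encodes M3, found in cortex and hippocampus and best known from glands and smooth muscle. Its level was 59.5, 53.2 and 50.4 CPM in the deficient mice and 53.3, 52.2 and 50.03 CPM in the wild-type mice. Deficient mouse 1 alone was clearly above the rest. The log2 fold change was 0.07 (SE 0.06, edgeR adjusted p = 0.933), and without deficient mouse 1 it was -0.00 (edgeR adjusted p = 0.999).

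Chrm5 encodes M5, the rarest of the family, known from dopamine neurons of the midbrain. It was counted 27, 35 and 31 times in the deficient mice and 34, 35 and 25 times in the wild-type mice, which is 1.38 ± 0.160 and 1.48 ± 0.425 CPM (SD, n = 3 each). Counting alone gives a coefficient of variation of 18.0% at this depth. The 95% interval of its ratio to wild type ran from 65.1% to 137%, and a fall as large as that of Kdm6a lies inside it.

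Of the Gi-coupled receptors, Chrm2 encodes M2, an autoreceptor on cholinergic nerve endings as well as a receptor of other neurons. It stood at 33.9, 35.0 and 37.4 CPM in the deficient mice and at 33.5, 33.2 and 33.3 CPM in the wild-type mice. All 3 deficient mice were above all 3 wild-type mice, although deficient mouse 1 was above the highest of them by less than 1 CPM. For Chrm2 the log2 fold change was 0.09 (SE 0.06, 95% interval -0.04 to 0.21, edgeR adjusted p = 0.901). The wild-type coefficient of variation, 0.406%, was below the 3.73% that counting gives. Chrm2 shares 142 exonic bases with 9330158H04Rik on the opposite strand.

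Chrm4 encodes M4, the muscarinic receptor of striatal projection neurons that carry the D1 dopamine receptor. It had 18.6, 14.1 and 16.01 CPM in the deficient mice and 19.8, 19.4 and 15.0 CPM in the wild-type mice. The groups overlapped through deficient mouse 1 and wild-type mouse 3. The log2 fold change was -0.15 (SE 0.13, 95% interval -0.43 to 0.13, edgeR adjusted p = 0.920), the largest in size among the members. Without wild-type mouse 3, the mouse with pituitary RNA, it was -0.28 (unadjusted p = 0.0244, edgeR adjusted p = 0.530), and without deficient mouse 1 it was -0.26 (edgeR adjusted p = 0.943). It moved towards 0 when deficient mouse 2 was left out (-0.06), and likewise for wild-type mouse 1 (-0.08) and wild-type mouse 2 (-0.10), while leaving out deficient mouse 3 gave -0.14.

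Without wild-type mouse 3 the other log2 fold changes were -0.12 for Chrm1 (edgeR adjusted p = 0.611), 0.09 for Chrm2, 0.04 for Chrm3, -0.29 for Chrm5, 0.01 for Chat, -0.09 for Slc5a7 and 0.09 for Ache. All 8 tested members had the same sign as with all mice, and 0 passed 5% FDR with edgeR.

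Chrm1 and Chrm4 were lowest in wild-type mouse 3 among the wild-type mice and highest in deficient mouse 1 among the deficient. The mean log2 CPM of 11 striatal neuron markers, all tested, was 0.06, -0.17 and -0.03 relative to wild type in the deficient mice and 0.02, 0.01 and -0.03 in the wild-type mice. In each genotype the mice ranked by this list as they did by Chrm4. For 11 markers of cortical and hippocampal excitatory neurons, all tested, the means were 0.05, -0.03 and -0.12 in the deficient mice and 0.05, 0.01 and -0.05 in the wild-type mice. Here the mice ranked as they did by Chrm1. The summed levels were 1130 to 1278 CPM in deficient and 1224 to 1275 CPM in wild-type mice for the striatal list, and 1888 to 2067 CPM and 1945 to 2029 CPM for the cortical list. Both lists were picked out after their values were seen, and their part in the receptor levels was not tested.

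**Figure D4:**
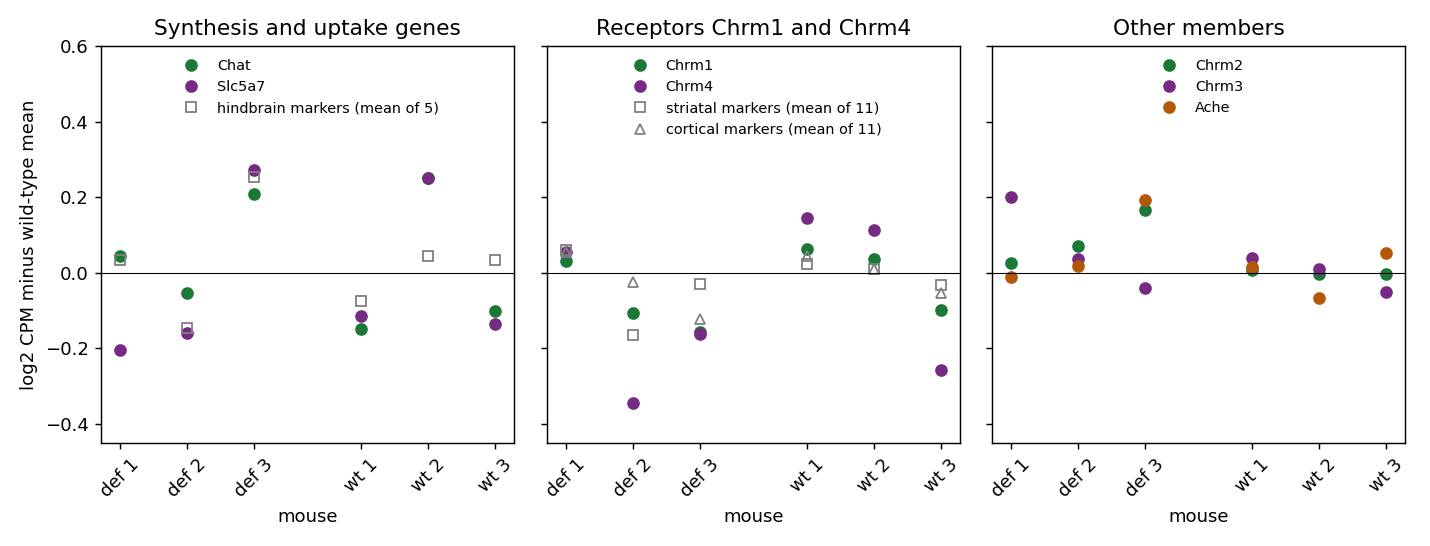
Log2 CPM of 7 members in each mouse, relative to the mean of the 3 wild-type mice (def, Kdm6a deficient; wt, wild type). Open grey symbols are means of marker lists. Chat and Slc5a7 are highest in deficient mouse 3 and wild-type mouse 2, where the latter pair of points coincides, and Chrm1 and Chrm4 are lowest in wild-type mouse 3 among the wild-type mice.

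The balance between the receptors was also compared, since it does not depend on library scaling. Of the 28 pairs of tested members, the Chrm1 to Chrm3 pair was the only pair whose count ratio did not overlap between genotypes. The CPM of single genes did not overlap in 11.2% of all tested genes, which is a different measure. The share over pairs of all genes was not computed, and the 28 pairs reuse the same members. The Chrm1 to Chrm3 ratio was 2.27, 2.31 and 2.36 in the deficient mice and 2.59, 2.60 and 2.47 in the wild-type mice. The means were 2.32 ± 0.0421 and 2.56 ± 0.0719 (SD, n = 3 each). The pair was chosen for this separation after all 28 were computed, so the values are a description and were not tested.

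Levels of different genes were compared per kilobase of exon, as CPM per kb over all 6 mice. Ache was highest at 48.3 ± 3.01 CPM per kb, followed by Chrm1 at 20.6 ± 1.31, Chrm3 at 12.2 ± 0.792 and Chrm4 at 11.9 ± 1.69 (SD, n = 6 each). Chrm2 stood at 6.05 ± 0.283, Slc5a7 at 3.23 ± 0.506, Chat at 2.93 ± 0.344 and Chrm5 at 0.896 ± 0.183 CPM per kb (SD, n = 6 each). The ranges of Chrm3 and Chrm4 overlapped, as did those of Slc5a7 and Chat, and the other neighbours in this order were apart in all 6 mice. The gene models of Chrm4 and Chrm5 used for these lengths hold no untranslated regions, unlike the others, and whether reads from such regions were counted is not known, so the place of these receptors in the order is uncertain. Per kb of coding sequence Chrm1 came before Ache, at 93.6 against 57.4 CPM per kb, and Chrm2 came before Chrm4, at 24.6 against 11.9. The order from Slc5a7 through Chat to Chrm5 was the same with both lengths.

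As shares of the summed receptor level per kb of exon, Chrm1 held 39.4% ± 0.895 in deficient and 40.3% ± 0.532 in wild-type mice (SD, n = 3 each). Chrm3 held 24.6% ± 0.852 and 22.8% ± 0.958, and Chrm4 held 22.1% ± 1.78 and 23.8% ± 1.95. Chrm2 held 12.3% ± 1.29 and 11.2% ± 0.809, and Chrm5 held 1.71% ± 0.296 and 1.75% ± 0.416. The ranges of the genotypes overlapped for all 5 receptors on this scale. With the same counts divided by coding length, the share of Chrm1 was 57.2% ± 0.903 in deficient and 59.0% ± 0.319 in wild-type mice and that of Chrm3 19.3% ± 0.642 and 18.0% ± 0.420 (SD, n = 3 each). With coding lengths the genotypes did not overlap for these 2 receptors, Chrm3 only by 18.58% against 18.52%, and overlapped for the other 3. Both are parts of 1 sum and hold the same counts as the Chrm1 to Chrm3 ratio, so they add nothing independent to it, and no test was made.

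The genes whose log2 CPM followed Chat most closely over the 6 libraries were Mrpl12, Gtf2h4 and Kpna4, with Pearson r of 0.994, 0.988 and 0.987. Those closest to Chrm1 were Osbpl3, Mpp2 and Nin, with r of 0.988, 0.988 and 0.981. Each is the best of 13852 genes over 6 points that share their library scaling, and the r values are a description. They do not measure the size of the differences. Mrpl12, Gtf2h4 and Kpna4 spanned 0.188, 0.403 and 0.129 log2 CPM, beside 0.401 for Chat. Osbpl3, Mpp2 and Nin spanned 0.271, 0.189 and 0.204, beside 0.218 for Chrm1.

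The rest of the pathway was described from lists of its other genes. No gene of these lists passed 5% FDR with edgeR or DESeq2. Over all tested genes, 49.2% had a negative log2 fold change and 5.86% an unadjusted edgeR p under 0.05. Among 15 genes of Gq signalling and of the M-current, the potassium current that muscarinic receptors close, 4 had a positive log2 fold change and 11 a negative (median -0.06). In 3 of these 15 the unadjusted edgeR p was under 0.05, all lower in deficient brains, against 5.86% of all tested genes in either direction. Kcnq3, a channel subunit of the M-current, had 235, 233 and 228 CPM in the deficient mice and 286, 263 and 249.9 CPM in the wild-type mice. Every deficient mouse lay below every wild-type mouse, and the genotypes did not overlap in 11.2% of all tested genes, in either direction. Its log2 fold change was -0.20 (SE 0.05, edgeR adjusted p = 0.435). Prkca, a protein kinase C gene, stood at -0.11 (SE 0.05, edgeR adjusted p = 0.856).

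Of 15 genes of Gi signalling 8 had positive and 7 negative log2 fold changes (median 0.01). Kcnj9 and Kcnj6, subunits of the potassium channel that M2 and M4 open, stood at -0.11 (SE 0.05) and -0.17 (SE 0.08), with edgeR adjusted p of 0.812 and 0.856. Kcnj9 was the only gene of this list with an unadjusted edgeR p under 0.05, which 5.86% of all tested genes reached. Both share exonic bases with antisense genes. The adenylyl cyclase gene Adcy5 and the striatal regulator of G protein signalling Rgs9 each stood at -0.08, with edgeR adjusted p of 0.885 and 0.897.

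**Figure D5:**
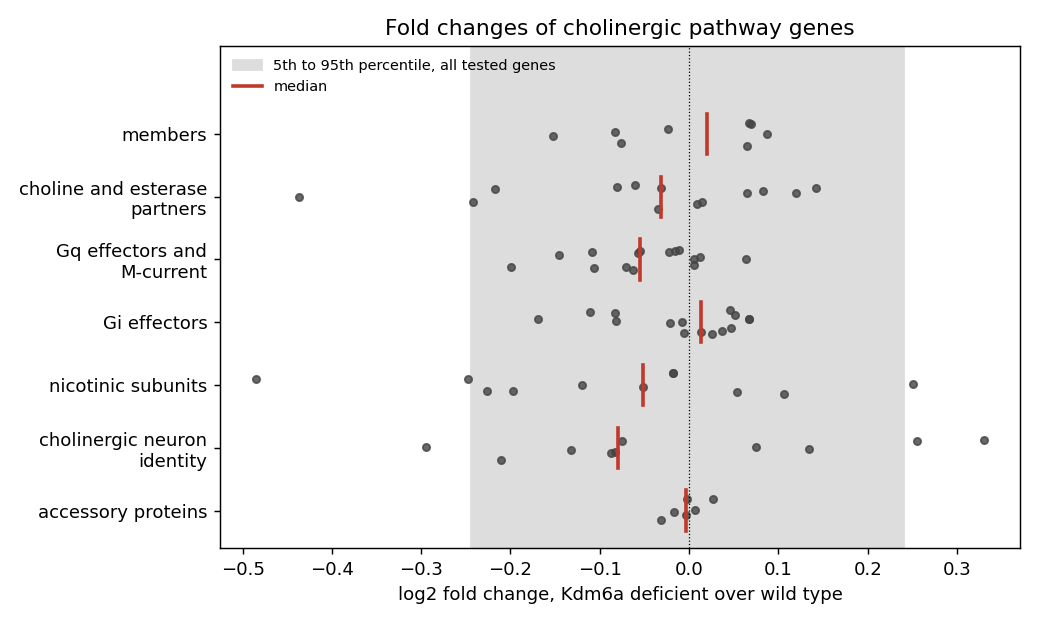
Log2 fold change, Kdm6a deficient over wild type, of the tested genes in 7 lists of the cholinergic pathway. Each point is a gene, red bars are list medians, and the grey band spans the 5th to the 95th percentile of all tested genes. List medians lie between -0.08 and 0.02.

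Among 13 genes of choline handling and esterase anchoring, 6 had positive and 7 negative log2 fold changes (median -0.03). Chdh, which oxidises choline, stood at -0.22 (SE 0.10, edgeR adjusted p = 0.856) and overlaps exons of Cacna1d on the opposite strand. Colq, the collagen tail that anchors acetylcholinesterase, was counted 25, 35 and 39 times in deficient and 45, 41 and 43 times in wild-type mice, which gave -0.44 on the log2 scale (SE 0.23, edgeR adjusted p = 0.861). Every deficient mouse had fewer Colq counts than every wild-type mouse, but in CPM deficient mouse 3, at 1.91, lay above wild-type mouse 3, at 1.80. Slc10a4, a vesicle protein of cholinergic and monoamine neurons, stood at -0.24 (SE 0.14, edgeR adjusted p = 0.887). Its transcript matches Gm5868 at 95.3% identity over 1425 bases, so its count is less certain. Chka, a choline kinase, stood at 0.08 (SE 0.06, edgeR adjusted p = 0.901).

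The 10 listed genes of cholinergic neuron identity were all tested, with 4 positive and 6 negative values (median -0.08). Lhx8, a transcription factor gene of forebrain cholinergic neurons, had 2.65 ± 0.504 CPM in deficient and 2.10 ± 0.352 CPM in wild-type mice (SD, n = 3 each), or 0.33 on the log2 scale (SE 0.20, edgeR adjusted p = 0.891). Prph, an intermediate filament of motor and peripheral neurons, stood at 0.26 (SE 0.13, edgeR adjusted p = 0.861). The homeobox genes Gbx1 and Gbx2 stood at -0.29 (SE 0.20) and -0.21 (SE 0.19), with edgeR adjusted p of 0.901 and 0.933.

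Of the 16 nicotinic subunit genes 11 were tested, with 3 positive and 8 negative values (median -0.05). Chrna4 and Chrnb3 had the smallest p, and these 2 had an unadjusted edgeR p under 0.05, against 5.86% of all tested genes. Both were highest in wild-type mouse 3, the mouse with pituitary RNA. In the wild-type mice Chrna4 had 61.6, 55.4 and 67.2 CPM and Chrnb3 3.77, 3.57 and 5.02 CPM. Values without this mouse are not given here. Chrna4 stood at -0.23 (SE 0.07, edgeR adjusted p = 0.563), and Chrnb3 at -0.48 with an SE of 0.16 (edgeR adjusted p = 0.696). Chrna7 and Chrna5 followed at -0.12 and -0.25. The 6 accessory proteins lay between -0.03 and 0.03, with Ly6e, Ly6h, Gprasp1 and Lynx1 at edgeR adjusted p of 0.966 to 0.993. Of the other named genes, Chka, Prkca and Gbx2 share exonic bases with genes on the opposite strand, and Colq and Gprasp1 with genes on the same strand, so their counts are less certain.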

How the data were processed

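Brain RNA of 6 mice was purified with a Qiagen kit, and TruSeq RNA libraries were prepared from it, per the labels' protocols. GRCm38 and DESeq2 appear in the submitters' processing notes. No source used here gives the aligner, the counter, the annotation or the strandedness. The authors deposited raw counts per gene symbol, 1 column per mouse. Beside them stand, per the file headers, a mean normalized signal, log2 fold changes and their errors, a test score and p-values of the authors' DESeq2 comparison, which were not used for the results. In the authors' deposited table, the adjusted p of the members was 0.99965 wherever it was given.

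The main test was edgeR 4.0.16 under R 4.3.3 on the deposited counts, using TMM scaling, the default expression filter and the robust quasi-likelihood F test, two-sided. Benjamini-Hochberg adjustment covered 15030 genes, with a threshold of 0.05. SE values were derived from the F statistic (log2 fold change over its root), and 95% intervals use the test's degrees of freedom. The code was checked on simulated counts. CPM uses TMM-scaled library sizes, and relative log2 CPM a prior count of 2. Counts fell between 18542590 and 24531408 per library. Rows with a number for a symbol (27, with 0.35% of the counts) stayed in. Lengths and overlaps come from GENCODE M21, and promoter windows, matched for 8 of 9 members, from RefSeq. Copies at least 95% identical over 200 bases were searched with blastn, and Chrm1 alone among the members matched, to the overlapping Gm22820. Alternatives were RLE scaling, dropping the filter, keeping genes averaging 1 CPM or more, limma-voom (limma 3.58.1), DESeq2 1.42.0, the mouse number as a block, and each mouse left out.

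The members and the lists were chosen with earlier results of these data known. Named are all members, Kdm6a, up to 4 genes by smallest p of each pathway list, the most abundant markers of lists described, and the 3 genes closest to Chat and to Chrm1. Some genes that this rule names are not reported here. Gh, the hindbrain, striatal and cortical lists and the Chrm1 to Chrm3 ratio were chosen after their values were seen. Mice of a genotype are separate animals by their labels, and pairs of libraries of 1 genotype differed by a chi-square of 4.09 to 7.57 per degree of freedom.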

Additional observations from a re-analysis of the deposited data

How the results depend on the processing

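The number of members past 5% FDR was 0 under each of the 12 alternatives, and 88 of the 96 recomputed member fold changes kept their direction. The smallest adjusted p in any alternative was 0.530 (Chrm4 without wild-type mouse 3). An unadjusted p under 0.05 was reached in 2 of the 96, by Chrm4 there and by Chrm1 without deficient mouse 1 (-0.13, unadjusted p = 0.0434, edgeR adjusted p = 0.925).

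With 1 mouse left out, the log2 fold changes ran from -0.00 to 0.12 for Chrm3, from -0.29 to 0.11 for Chrm5, from -0.01 to 0.19 for Chat and from -0.19 to 0.10 for Slc5a7. All 8 reversed values came from these fits, and the cause was not tested. They were -0.0028 for Chrm3 and 0.00 for Chrm5 without deficient mouse 1, 0.11 for Chrm5 without wild-type mouse 2, -0.01 for Chat without deficient mouse 3, -0.0095 for Chat without wild-type mouse 1, and 0.06, 0.04 and 0.10 for Slc5a7 without deficient mouse 1, deficient mouse 2 and wild-type mouse 2. The ranges were -0.13 to -0.04 for Chrm1, 0.05 to 0.12 for Chrm2, -0.28 to -0.06 for Chrm4 and 0.00 to 0.10 for Ache. The number of members with a negative log2 fold change ran from 2 (without wild-type mouse 2) to 5, and their median from -0.04 to 0.08.

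Over all genes, the count past 5% FDR was 7. Keeping every gene gave 25 (no filter), and the count was 20 with DESeq2, 15 with the mouse number as a block, and from 3 (without wild-type mouse 2) to 17 (without wild-type mouse 3) with 1 mouse left out. It was 12 without deficient mouse 1 and 15 without deficient mouse 3. The block changed no call of a member. Deviations of same-numbered mice correlated over genes at -0.000634, 0.0810 and 0.0480, so the numbers were not taken as pairs. Depth limits Chrm5, with 25 to 35 counts per library.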
